A study of Saccharomyces cerevisiae with 6 samples.

Results

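The kinetochore is the protein assembly that ties a chromosome to spindle microtubules, and the genes described here encode 46 of its subunits and of the spindle checkpoint proteins of budding yeast. They were taken by standard gene name from 9 subcomplexes. The names were not picked by their ratios, although earlier results of these data were known when the set was proposed. All 46 were found among the 6377 ORFs of the arrays, each with a value on every array. Of those ORFs, 6290 had values in both cultures and could be tested. NDC10 is listed as CBF2 in the reference annotation and was matched through its synonym.

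The arrays compared mRNA of doxycycline (dox)-treated and untreated Saccharomyces cerevisiae cells of the R1158 background, genotype TETp-HSC82 hsp82Δ arg4Δ lys5Δ car2Δ::URA3, in log phase. Both the treated and the untreated cells carried every one of these alleles. HSP82 was deleted, so that the only Hsp90 gene left was HSC82 under a tetracycline-repressible promoter, and dox (5 μg/ml for 11 h) shut it off to give low-Hsp90 cells. There were 2 cultures with 3 technical arrays each, and each array gave a log2 ratio of treated over untreated cells. In culture 1 the light-labeled cells were treated, and in culture 2 the heavy-labeled cells (heavy arginine and lysine, supplied for protein mass spectrometry). The isotope label therefore goes with the culture, and the treated sample carried the same dye on all 6 arrays, so that a dye effect and the treatment cannot be told apart. No dox-treated cells of another strain were analysed here, so that effects of dox itself and of low Hsp90 cannot be told apart.

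In budding yeast each centromere is a short DNA element on which the kinetochore is built in layers. The CBF3 complex binds the centromere DNA, a nucleosome holding the histone variant Cse4 sits next to it, the Ctf19 group and Mif2 connect inward, and the MIND, Spc105 and Ndc80 complexes reach outward to the microtubule, which the Dam1 complex encircles. The Ipl1 kinase corrects wrong attachments, and the spindle checkpoint holds cells before anaphase until every kinetochore is attached. Hsp90 acts at the protein level in this assembly, since the F-box subunit Ctf13 has to be activated by Skp1 with the help of Sgt1 and Hsp90 before CBF3 can form. The ratios below are of mRNA and do not measure assembly.

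HSC82 mRNA was lower on all 6 arrays, with a mean log2 ratio of −5.99 ± 0.16 (moderated SE of limma, n = 2 cultures; limma, Benjamini-Hochberg adjusted p = 0.000658). The probe of HSP82, which is absent from this strain and is a close paralog of HSC82, read −6.30, which is not an exact level since 2 of its arrays stood at the lowest value of the table (−6.64). Whether it binds HSC82 message was not tested. SGT1, which encodes the co-chaperone that links Skp1 to Hsp90, had a mean of 0.21 ± 0.12 and was higher on 5 of 6 arrays (adjusted p = 0.296).

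No kinetochore or checkpoint gene changed at the mRNA level by the criterion, a ratio past 1.5-fold whose p was below 0.05 before adjustment. This criterion called 10.5% of all genes tested, 361 higher and 298 lower, against 0 of the 46. With the Benjamini-Hochberg adjusted p below 0.05 and the same fold, 337 genes of the table and again 0 of the 46 were called, and the lowest adjusted p among the 46 was 0.0625, for HSK3. The mean ratios ran from −0.54 for CTF19 to 0.54 for HSK3, or 1.45-fold either way, and none reached 1.5-fold (0.58 on the log2 scale). The 5% and 95% quantiles of all genes were −0.58 and 0.65.

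Without the fold, an unadjusted p below 0.05 was reached by 12 of the 46 (26.1%), against 29.1% of all genes. Of the 12, 7 were higher in treated cells (NNF1, KRE28, MIF2, DAD4, HSK3, BIR1 and MAD3) and 5 were lower (SPC25, CTF19, MCM22, IML3 and BUB3). The 95% interval of the mean lay wholly within 1.5-fold either way for 30 genes (65.2%), against 59.8% of all genes. For the other 16 genes the interval reached past 1.5-fold, which is the precision that 2 cultures gave. The ratio had the same sign on all 6 arrays for 26 genes (56.5%; 14 higher and 12 lower), against 47% of all genes. The median of the 46 means was −0.00, against −0.01 for all genes. In a bulk culture, fewer cells in the phase that makes a message and less of that message per cell cannot be told apart.

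**Figure D1:**
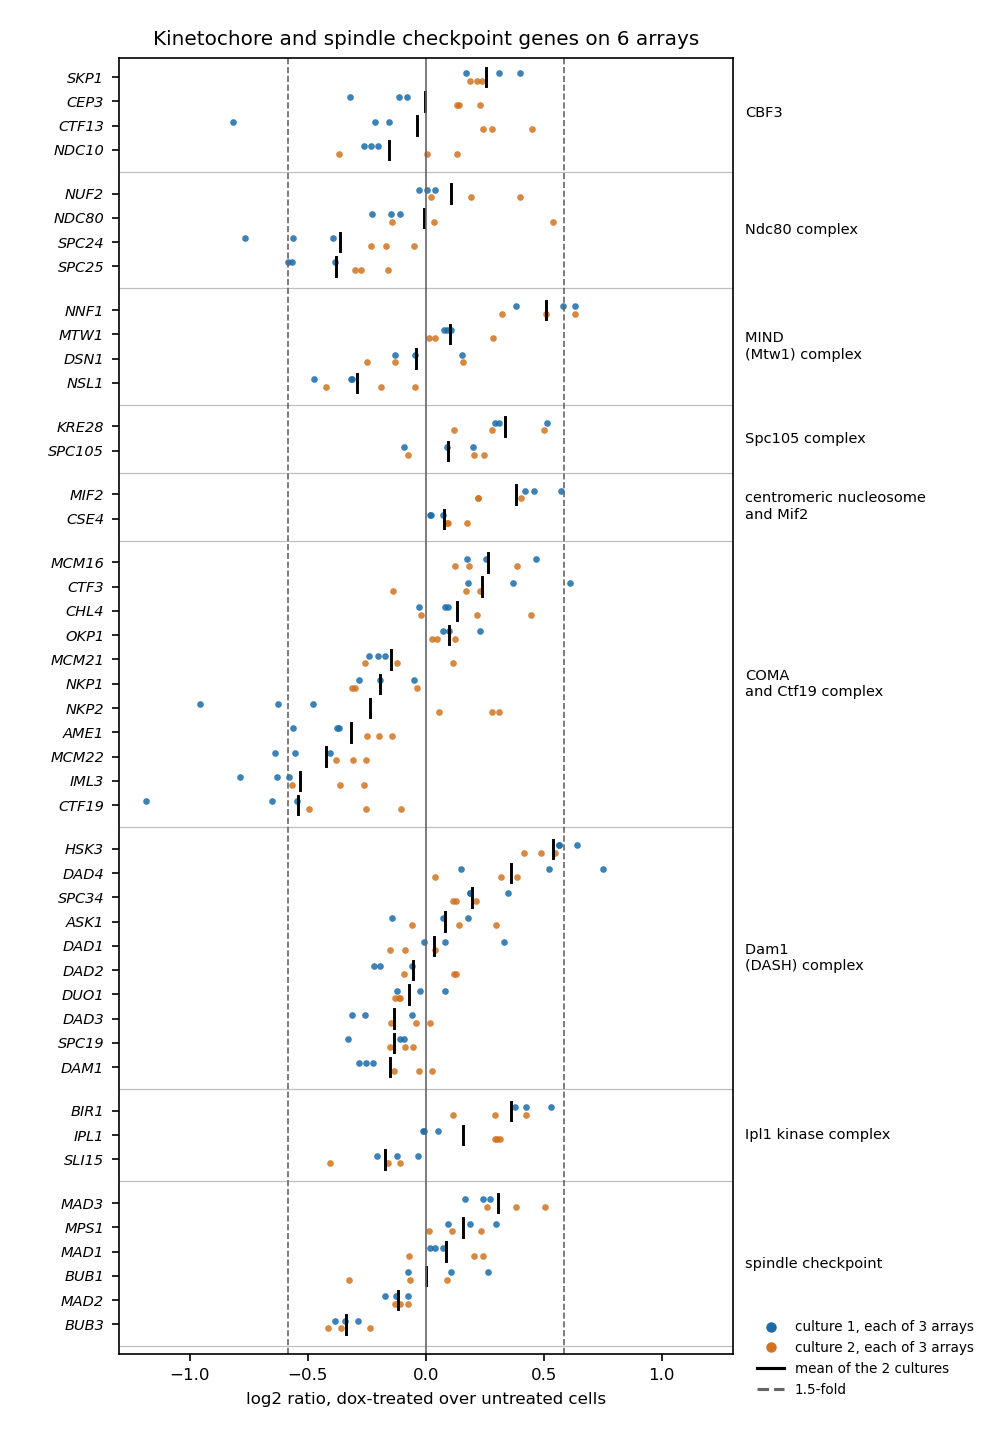
Log2 ratio of dox-treated over untreated cells (x axis) for each of the 46 genes (rows, by subcomplex), with the 3 arrays of culture 1 and the 3 arrays of culture 2 as points, the mean of the 2 cultures as a bar and 1.5-fold as dashed lines. Every bar lies inside the dashed lines, from −0.54 for CTF19 to 0.54 for HSK3.

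The 4 CBF3 genes had mean changes of small size that did not share a direction. SKP1 encodes an adaptor that is a subunit of both CBF3 and the SCF ubiquitin ligases. Its log2 ratios were 0.31, 0.17 and 0.40 on the arrays of culture 1 and 0.19, 0.22 and 0.24 on those of culture 2. SKP1 was thus higher in treated cells on every array, with a mean of 0.25 ± 0.12 (adjusted p = 0.217). NDC10 encodes a subunit that binds centromere DNA. Its ratios were −0.26, −0.23 and −0.20 in culture 1 and −0.37, 0.00 and 0.13 in culture 2. The mean was −0.15 ± 0.12 (adjusted p = 0.441), and the arrays of culture 2 lay on both sides of those of culture 1.

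CEP3 and CTF13 ran opposite ways in the 2 cultures. CEP3, whose product holds the zinc cluster that reads the centromere sequence, had ratios of −0.08, −0.12 and −0.32 in culture 1 and 0.13, 0.23 and 0.14 in culture 2. CTF13, the F-box gene, had ratios of −0.21, −0.15 and −0.82 in culture 1 and 0.28, 0.24 and 0.45 in culture 2. For both genes every array of culture 1 was below 0 and every array of culture 2 above it, so the means over cultures were −0.00 ± 0.14 for CEP3 and −0.04 ± 0.19 for CTF13. The lowest value of CTF13 came from array 3 of culture 1, and the other 2 arrays of that culture were closer to 0. Without that array the mean of CTF13 was 0.07 and that of CEP3 0.04, and scale or quantile normalization between arrays also turned both means above 0. The 95% intervals of all 4 CBF3 genes lay within 1.5-fold, between −0.53 and 0.55 on the log2 scale.

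Set against the rest of the kinetochore, CBF3 was lower in culture 1 and higher in culture 2. In culture 1 the median of its 4 genes was −0.20 and that of the other 42 genes 0.01, and in culture 2 they were 0.19 and 0.08. The difference was −0.21 in culture 1 and 0.11 in culture 2. On the mean ratios it was −0.04, smaller than the SD of 0.23 between the cultures. On single arrays the CBF3 median was −0.15, −0.13 and −0.26 in culture 1 and 0.16, 0.22 and 0.19 in culture 2, so the cultures did not overlap. The medians of the Ndc80 complex, the Ctf19 group and the Ipl1 kinase complex did not overlap between the cultures either, each lower in culture 1. Those of the other subcomplexes did overlap. Leaving CTF13 out moved the difference in culture 1 to −0.18, and leaving array 3 of culture 1 out moved the difference on the mean ratios to 0.04. With 2 cultures that disagree in sign, a common direction of the CBF3 messages was not detectable.

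**Figure D2:**
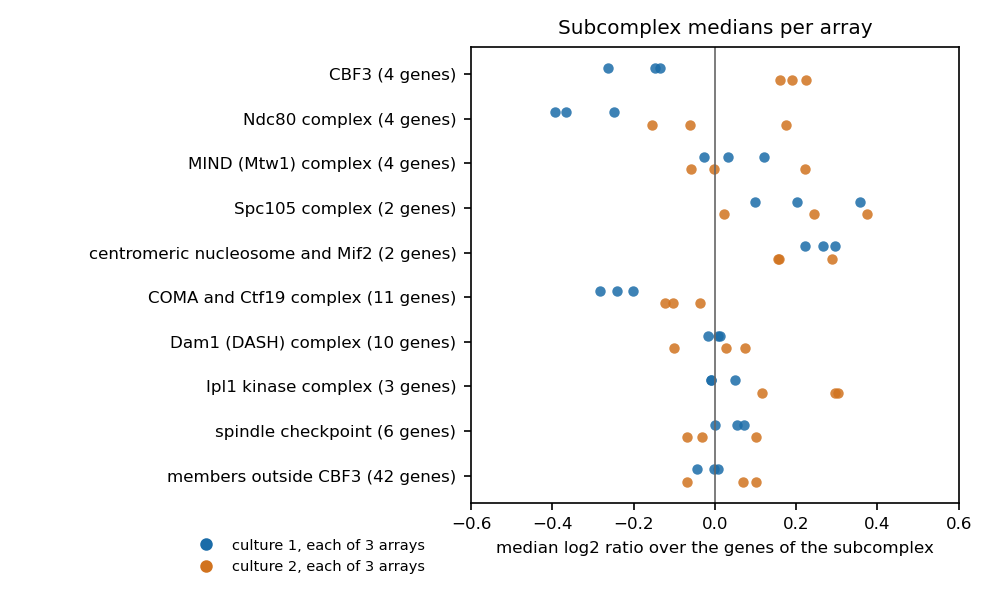
Median log2 ratio over the genes of each subcomplex (x axis) on each of the 3 arrays of culture 1 and of culture 2 (points), with the number of genes beside each name. The CBF3 medians are below 0 on the arrays of culture 1 (−0.26 to −0.13) and above 0 on those of culture 2 (0.16 to 0.22), while the COMA and Ctf19 medians are below 0 on all 6 arrays.

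The inner kinetochore genes CSE4 and MIF2 were both above 0 on every array. CSE4, which encodes the centromeric histone H3 variant, had ratios of 0.02, 0.07 and 0.02 in culture 1 and 0.09, 0.10 and 0.17 in culture 2 (mean 0.08 ± 0.12, adjusted p = 0.688). MIF2, the yeast CENP-C gene, had ratios of 0.57, 0.46 and 0.42 in culture 1 and 0.22, 0.22 and 0.41 in culture 2. The mean of MIF2 was 0.38 ± 0.12 (adjusted p = 0.121), and its 95% interval of 0.07 to 0.70 left out 0 but reached past 1.5-fold.

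The 11 genes of the COMA and Ctf19 group held the 3 lowest means of the 46, those of CTF19, IML3 and MCM22. This group is the yeast counterpart of the constitutive centromere network and links centromeric chromatin to the outer layers. Its median was −0.20, with 4 means above 0 and 7 below, and the median was below 0 on each of the 6 arrays. CTF19, the lowest, encodes an anchor for proteins that load cohesin at the centromere. It had ratios of −0.54, −0.65 and −1.19 in culture 1 and −0.49, −0.10 and −0.25 in culture 2. All 6 were below 0, with a mean of −0.54 ± 0.16 (adjusted p = 0.102), and all 3 arrays of culture 1 were lower than those of culture 2. CTF19 was the gene nearest the criterion, and without array 1 of culture 1 it passed, with a mean of −0.60. MCM16, the highest, had ratios of 0.25, 0.18 and 0.47 in culture 1 and 0.12, 0.39 and 0.19 in culture 2, a mean of 0.27 ± 0.12 (adjusted p = 0.201).

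IML3 (−0.53 ± 0.13, adjusted p = 0.0744) and MCM22 (−0.42 ± 0.12, adjusted p = 0.1) were also below 0 on all 6 arrays, with intervals that left out 0. Iml3 binds Chl4, and Mcm22 forms a subcomplex with Mcm16 and Ctf3. AME1 (−0.31) and NKP1 (−0.20) were below 0 on all 6 arrays as well, and MCM21 (−0.15) on 5 of 6. On the other side stood CTF3 with a mean of 0.24, CHL4 with 0.13 and OKP1 with 0.10, of which OKP1 was above 0 on every array.

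NKP2, which encodes a nonessential partner of Nkp1, differed most between the cultures among the 46. Its ratios were −0.62, −0.48 and −0.96 in culture 1 and 0.31, 0.06 and 0.28 in culture 2, giving a mean of −0.24 ± 0.23 (adjusted p = 0.535). The sign was opposite in the 2 cultures on every array, and the mean over cultures describes neither.

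The Ndc80 complex is the main microtubule contact, a rod with Ndc80 and Nuf2 at its microtubule end and Spc24 and Spc25 at its kinetochore end. The genes of the inner end were the lower ones. SPC25 had ratios of −0.56, −0.38 and −0.58 in culture 1 and −0.30, −0.27 and −0.16 in culture 2, with a mean of −0.38 ± 0.13 (adjusted p = 0.133). SPC24 had a mean of −0.36 ± 0.15 (adjusted p = 0.179), and both genes were below 0 on all 6 arrays. NUF2 had ratios of −0.03, 0.00 and 0.04 in culture 1 and 0.40, 0.02 and 0.19 in culture 2 (mean 0.11 ± 0.12), so culture 1 was near 0 on each array. NDC80 itself had a mean of −0.01 ± 0.13. All 4 genes had a lower ratio in culture 1 than in culture 2, and the median over them was −0.34 in culture 1 and −0.00 in culture 2.

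The MIND complex joins the inner kinetochore to Ndc80, and its 4 genes ranged from NSL1 to NNF1. NNF1 had ratios of 0.63, 0.58 and 0.38 in culture 1 and 0.32, 0.51 and 0.63 in culture 2. The cultures overlapped, and the mean of 0.51 ± 0.12 (adjusted p = 0.0665) was the second highest of the 46. NSL1 had ratios of −0.31, −0.32 and −0.47 in culture 1 and −0.42, −0.04 and −0.19 in culture 2, below 0 on each array, with a mean of −0.29 ± 0.12 (adjusted p = 0.18). MTW1 (0.10) and DSN1 (−0.04) were close to 0. Of the 46, 2 stand on the study's list of proteins that were less abundant in low-Hsp90 cells, DSN1 and OKP1. On its list of more abundant proteins stand 0. How many of the 46 proteins were detected was not counted here, so these counts were not set against the share over all proteins. The mRNA means of DSN1 and OKP1 were −0.04 ± 0.12 and 0.10 ± 0.12, both with intervals within 1.5-fold.

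In the Spc105 complex, SPC105 encodes the scaffold to which the checkpoint proteins are recruited, and KRE28 its binding partner. KRE28 had ratios of 0.29, 0.31 and 0.51 in culture 1 and 0.50, 0.12 and 0.28 in culture 2, above 0 on all arrays, with a mean of 0.34 ± 0.12 (adjusted p = 0.136). SPC105 had ratios of −0.09, 0.09 and 0.20 in culture 1 and 0.25, −0.08 and 0.21 in culture 2. Its mean was 0.10 ± 0.12, and the arrays of either culture lay on both sides of 0.

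The 10 genes of the Dam1 complex, the ring that couples kinetochores to growing and shrinking microtubules, had a median of −0.01. HSK3, a small subunit, had ratios of 0.56, 0.64 and 0.57 in culture 1 and 0.55, 0.42 and 0.49 in culture 2. Its mean of 0.54 ± 0.12 was 1.45-fold and the highest of the 46 (adjusted p = 0.0625). DAM1, at the other end of the complex, had ratios of −0.25, −0.22 and −0.28 in culture 1 and −0.03, −0.14 and 0.03 in culture 2 (mean −0.15 ± 0.12, adjusted p = 0.47). Its 3 arrays of culture 1 were all below those of culture 2. DAD4 had a mean of 0.36 ± 0.13 (adjusted p = 0.138) but spread from 0.04 to 0.75 over the arrays. The remaining means ran down from SPC34 at 0.20, through ASK1 (0.08), DAD1 (0.03), DAD2 (−0.05), DUO1 (−0.07) and DAD3 (−0.13), to SPC19 at −0.14.

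The 3 genes of the Ipl1 kinase complex differed from each other. BIR1, the survivin homolog, had ratios of 0.38, 0.42 and 0.53 in culture 1 and 0.42, 0.11 and 0.30 in culture 2, with a mean of 0.36 ± 0.12 (adjusted p = 0.129). SLI15, the INCENP homolog that activates the kinase, had ratios of −0.21, −0.12 and −0.03 in culture 1 and −0.40, −0.11 and −0.16 in culture 2, with a mean of −0.17 ± 0.12 (adjusted p = 0.382). BIR1 was thus above 0 and SLI15 below 0 on each of the 6 arrays. IPL1, the Aurora kinase gene, was near 0 in culture 1 (0.01) and at 0.30 in culture 2.

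Among the 6 spindle checkpoint genes, 3 had means above 0 and 3 below. MAD3, a subunit of the inhibitor of the anaphase-promoting complex, had ratios of 0.16, 0.27 and 0.24 in culture 1 and 0.50, 0.38 and 0.26 in culture 2. BUB3, whose product binds phosphorylated Spc105 and carries Bub1 and Mad3 to it, had ratios of −0.34, −0.38 and −0.29 in culture 1 and −0.36, −0.41 and −0.24 in culture 2. MAD3 was higher on all 6 arrays (mean 0.30 ± 0.12, adjusted p = 0.171) and BUB3 lower on all 6 (mean −0.34 ± 0.12, adjusted p = 0.133), with the cultures overlapping for BUB3. MPS1, the kinase gene that starts checkpoint signalling, had a mean of 0.16, MAD1 of 0.08, BUB1 of −0.00 and MAD2 of −0.12. MPS1 was above 0 and MAD2 below 0 on all 6 arrays.

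Ratios were also set side by side for 13 pairs of genes whose products bind each other directly. The pairs were chosen after ratios had been seen, no share over other pairs of genes was computed, and the differences are a description with no test. Within these pairs, the difference had the same sign on all 6 arrays for 9, and its mean exceeded 1.5-fold for 2. MCM16 minus MCM22 was 0.81, 0.81 and 0.87 in culture 1 and 0.50, 0.70 and 0.44 in culture 2 (mean 0.69, 1.61-fold). CHL4 minus IML3 was 0.76, 0.71 and 0.67 in culture 1 and 0.70, 0.55 and 0.58 in culture 2 (mean 0.66, 1.58-fold). In both pairs the means of the partners had opposite signs, so the gap is by arithmetic larger than the change of either gene. The same sign on all 6 arrays was also seen for AME1 minus OKP1 (−0.42), MTW1 minus NNF1 (−0.41), CTF19 minus MCM21 (−0.39), BUB1 minus BUB3 (0.34), IPL1 minus SLI15 (0.33), SPC105 minus KRE28 (−0.24) and MAD1 minus MAD2 (0.20). SPC24 and SPC25 had like ratios, with a mean difference of 0.02, while NKP1 minus NKP2 was 0.51 in culture 1 and −0.43 in culture 2.

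**Figure D3:**
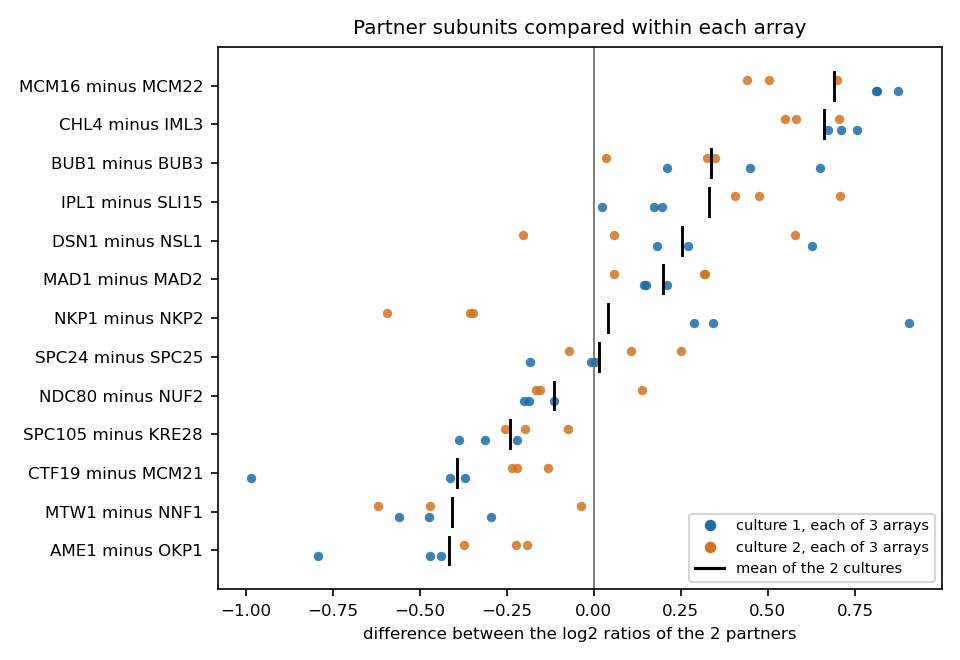
Difference in log2 ratio between 2 genes whose products bind each other (x axis) for 13 pairs (rows), with a point for each of the 3 arrays of culture 1 and of culture 2 and a bar for the mean of the cultures. MCM16 minus MCM22 and CHL4 minus IML3 lie above 0 on all 6 arrays with means of 0.69 and 0.66, while NKP1 minus NKP2 lies above 0 in culture 1 and below 0 in culture 2.

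Of the 46 genes, 31 are essential for growth and 15 are not. The median of the mean ratios was 0.03 for the essential genes and −0.12 for the nonessential ones. An unadjusted p below 0.05 was reached by 5 essential genes in the higher and 1 in the lower direction (SPC25), and by 2 nonessential genes in the higher (KRE28 and MAD3) and 4 in the lower direction (CTF19, MCM22, IML3 and BUB3). These are 19.4% of the essential and 40% of the nonessential genes, against 29.1% of all genes (880 higher and 953 lower of 6290). The counts are small. All 15 nonessential genes belong to the Ctf19 group, the Spc105 complex or the checkpoint, so essentiality and subcomplex go together.

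The cultures were then compared with each other over 3 technical arrays each. By an adjusted p below 0.05 with more than 1.5-fold, 2 of the 46 genes differed (4.35%), CTF13 and NKP2, against 7.49% of all genes. CTF13 was higher in culture 2 by 0.72 ± 0.17 (moderated SE; limma, adjusted p = 0.0184) and NKP2 by 0.90 ± 0.13 (adjusted p = 0.00248). Without the fold, CEP3 (0.34), SPC24 (0.42) and IPL1 (0.29) also passed, each higher in culture 2. That made 5 of the 46 genes, against 1390 of all 6290 genes. The call of CTF13 was lost without array 3 of culture 1 (0.51, below 1.5-fold) and without array 3 of culture 2 (0.66, adjusted p = 0.0724). The test compares these 2 cultures only, and its spread is that of technical arrays.

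The ratios of culture 1 were more spread out than those of culture 2, with an SD over the 46 genes of 0.34 against 0.22, as they were over all genes (0.54 against 0.40). In culture 1 alone 4 genes were past 1.5-fold (8.7%; CTF19, IML3 and NKP2 lower, HSK3 higher), against 17.1% of all genes. In culture 2 alone there were 0, against 8.35% of all genes. The means of the 2 cultures were both above 0 for 21 genes and both below 0 for 18, and they had opposite signs for 7. Of all 6290 genes tested, 2327 were above 0 in both cultures, 2329 below 0 in both and 1629 of opposite sign. Across the 46 genes the culture means correlated with a Pearson r of 0.72 and a Spearman rho of 0.67, and across all genes with 0.67 and 0.68. These are correlations across genes, which are not independent replicates and share the arrays of a culture.

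**Figure D4:**
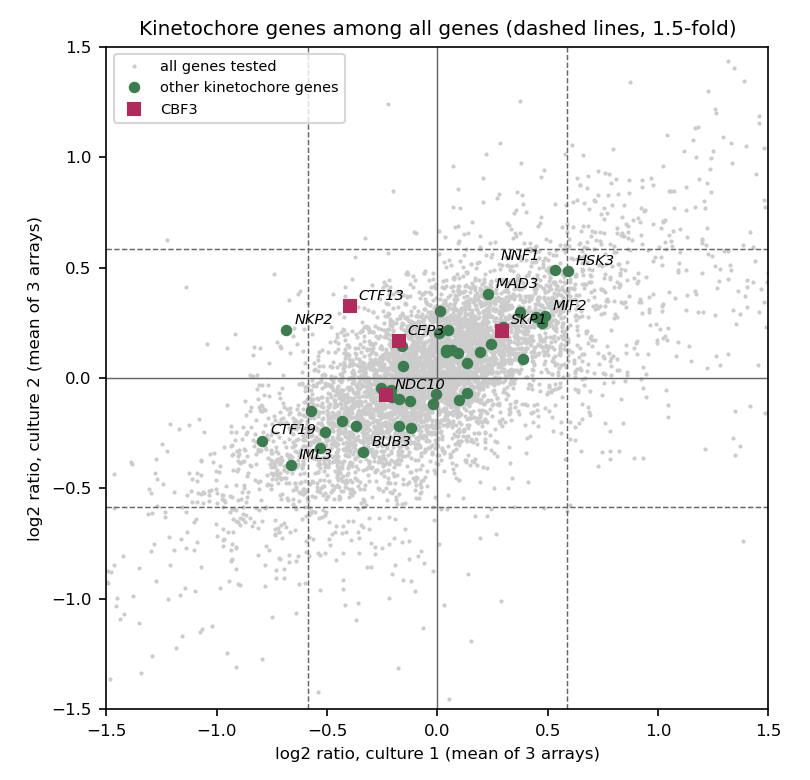
Mean log2 ratio of each of the 46 genes in culture 1 (x axis) and in culture 2 (y axis), with squares for CBF3, circles for the other 42 and small grey points for all genes tested (137 of which lie outside the axes), and dashed lines at 1.5-fold. The culture means of the 46 genes rise together (Pearson r of 0.72), while CTF13 and NKP2 lie to the upper left, below 0 in culture 1 and above 0 in culture 2.

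Calls were also counted in related genes of the spindle and of mitosis, to be read beside the 10.5% of all genes that were called. None of the 8 genes for tubulins and tubulin folding, 17 for the spindle pole body, 13 for spindle motors and microtubule-associated proteins, 8 further centromere genes, 14 for cohesin and condensin, or 7 for SCF ubiquitin ligases passed the criterion, with list medians from −0.04 to 0.11. Of 17 genes for the anaphase-promoting complex, securin and separase, 1 was called, APC11, the RING subunit (−0.78 ± 0.13, adjusted p = 0.0397). Of 12 genes of mitotic exit and the spindle position checkpoint, 1 was called, BUB2 (−0.62 ± 0.13, adjusted p = 0.0587), which acts in the spindle position checkpoint and not at the kinetochore.

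Genes expressed in set phases of the cell cycle were counted in the same way, again beside the 10.5% called over all genes. The counts of called genes in the histone and G2/M lists are small. Of 12 M/G1 genes, 8 fell (7 of them also by the adjusted p), among them the daughter cell genes DSE1 (−1.18 ± 0.14, adjusted p = 0.0261) and SCW11 (−1.05 ± 0.12, adjusted p = 0.0246). The others that fell were CTS1, EGT2, PCL9, DSE2, DSE4 and FAR1. The list median was −0.74 with culture medians of −0.73 and −0.73. Not all went that way, since 3 M/G1 genes had means above 0, with ASH1 (0.41) and CLN3 (0.35) the highest. Of 15 G1/S genes, 4 rose, the G1 cyclins CLN1 (0.95), CLN2 (0.74) and PCL1 (1.04) and the repressor YOX1 (0.77), with a list median of 0.28 in culture 1 and −0.03 in culture 2. Another 5 G1/S genes had means below 0, and CDC9 (−0.52) and RNR1 (−0.30) were below 0 on all 6 arrays. Of 9 histone genes, HTA2 and HTB2 fell (both −0.59), and the list median was −0.43 in culture 1 and 0.12 in culture 2. Of 12 G2/M genes, BUD4 rose (0.59) and YOR315W fell (−1.35), and the list median was 0.41 in both cultures. In this list 10 genes were above 0 in both cultures and 2 below 0 in both. An unadjusted p below 0.05 was reached by 66.7% of it (7 higher and 1 lower), against 29.1% of all genes. By the adjusted p, 0 of the G1/S and histone genes and 1 G2/M gene, YOR315W, were called. The makeup of the cultures by cell cycle phase was not measured here, and its part in the ratios of the kinetochore genes was not tested.

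**Figure D5:**
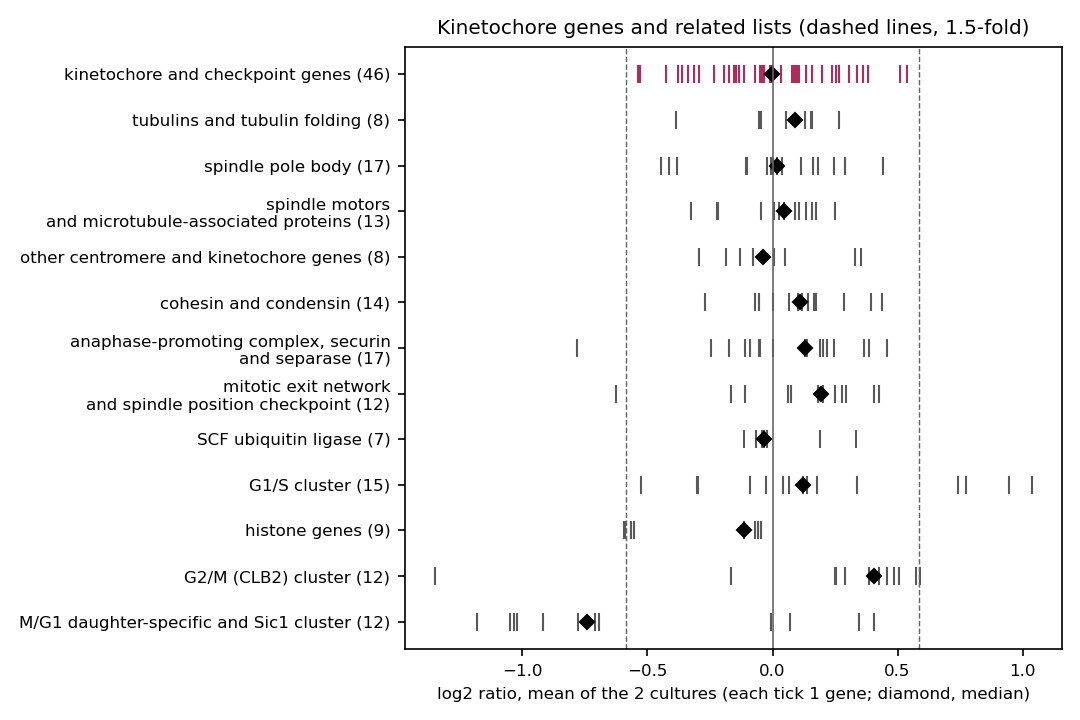
Mean log2 ratio over the 2 cultures (x axis) of each gene (ticks) in the 46 kinetochore and checkpoint genes and in 12 related lists (rows; the Hsp90 genes and SGT1 are not drawn), with a diamond at the median of each list and 1.5-fold as dashed lines. Of the 12 lists drawn, the M/G1 list has the lowest median (−0.74) and the G2/M list the highest (0.41), while the kinetochore and checkpoint genes all lie between the dashed lines.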

How the data were processed

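RNA of treated and untreated cells, in different dyes, was hybridized together to home-made oligonucleotide arrays, and the authors applied LOWESS normalization (GeneSpring GX) array by array. The deposited values were taken as log2 ratios, since the lowest value, −6.64, is the log2 of 0.01 and occurs 10 times. Scale and centering are not stated with the values, the direction was taken from the sample titles, and array medians lay between −0.03 and 0.02. Spot intensities were not analysed here, each array gave 6180 to 6353 values, and the precision is limited by the 2 cultures and their 3 arrays each.

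Row names are ORF names, and 5840 of 6377 matched a locus tag of the RefSeq R64 table after letter suffixes were rewritten (288 rows, 4 of them members). The others kept their own names. No column was left unused (0). The 3 technical arrays of a culture were averaged, and 6290 genes were fitted against a ratio of 0 by limma (lmFit and eBayes, limma 3.58.1 under R 4.3.3), with Benjamini-Hochberg adjustment over all of them. The study's methods name the criterion of 1.5-fold with p below 0.05 but no test, so p here is that of limma before adjustment, and adjusted values are printed. The SEs and 95% intervals come from the same fit, which draws the variance of each gene towards that of all genes. A moderated SE is thus not the plain SE of 2 culture means. It is smaller than the plain one where the cultures disagreed strongly, as for NKP2 and CTF13. Cultures were compared by limma over 3 arrays against 3. The labels call the 2 cultures biological replicates and the arrays of a culture technical ones. Both tests were checked on simulated ratios.

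The 46 genes, matched by name, and the 13 related lists were chosen with earlier results of these data known, and the pairs after ratios had been seen. Values on every array are given for the CBF3 genes, for genes that differed between cultures, for any gene past the criterion, and for the highest and lowest gene of each other subcomplex. HSC82, HSP82 and SGT1 are always named. The related lists are given as counts of genes called in each direction, with the called genes named. Genes outside this rule were named after values were seen. Of the related genes, 1 motor gene and 2 centromere genes had no value to test. Alternatives were other thresholds, units of replication and normalizations, a filter on missing values, and leaving out each array or culture. The genome build of the probes is not given in the sources used here, so no coordinate is printed.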

Additional observations from a re-analysis of the deposited data

Results flagged for a closer look

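In 4 of the 57 sets of 6 values checked (each of the 46 genes, and medians of groups of genes), 1 array stood apart from the others. In these 4 the gap to the next value was 0.64 to 0.655 of the range of the 6 values. The sets share arrays and genes, so the count was not set against a rate by chance. NDC80 read 0.54 on array 1 of culture 2, against a next highest value of 0.04. MTW1 read 0.29 on the same array, against 0.11. MCM21 read 0.12 on array 2 of culture 2, against −0.12. SPC19 read −0.33 on array 3 of culture 1, against −0.15.

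The cultures differed in 3 genes that were below 0 on every array of culture 1 and above 0 on every array of culture 2. Related genes such as CIN4, NUD1 and HHT1 had the same pattern, and its share over all genes was not computed. Culture means of opposite sign were found for 7 of the 46 genes and for 1629 of all 6290. The difference, culture 2 minus culture 1, was 0.90 for NKP2 (limma, adjusted p = 0.00248), 0.72 for CTF13 (adjusted p = 0.0184) and 0.34 for CEP3 (adjusted p = 0.0348, under 1.5-fold). The culture goes with the isotope label of the treated cells, and the part of either was not tested.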

How the results depend on the processing

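The count of 0 genes past the criterion held with an adjusted p, a 2-fold threshold, the fold alone, the 6 arrays as replicates, culture as a random block, the one-sample t-test over 6 arrays, median centering, scale or quantile normalization, and genes with all 6 values only. It became 12 with an unadjusted p below 0.05 and no fold. Leaving out a culture or an array gave 0 to 4, with 4 by the fold alone without culture 2 (CTF19, IML3, NKP2 and HSK3) and 1 without array 1 of culture 1 (CTF19). The count of genes that differed between cultures was 5 without the fold (against 1390 of all 6290 genes), and 1 to 2 when an array was left out. CBF3 minus the other genes was −0.21 in culture 1 alone and 0.11 in culture 2 alone, lay between −0.08 and 0.04 when single arrays were left out, and was above 0 (0.02) under scale or quantile normalization and with means in place of medians. Of the 12 genes with an unadjusted p below 0.05, MAD3 lost it in 3 of 13 alternatives and KRE28, DAD4 and BIR1 in 1 each, without array 1 of culture 2. The 6 arrays as replicates brought 15 more genes below that p, culture as a random block 6 and the t-test 16. Means near 0 changed sign in some settings for CEP3, CTF13, NDC80, DSN1, DAD1 and BUB1, and none of these was called. In alternatives chosen after seeing the data, the medians of CBF3, Dam1 and MIND and the differences SPC24 minus SPC25 and NKP1 minus NKP2 changed sign. Each value is already a ratio of paired treated and untreated cells, so no further pairing was fitted.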
